A study of Homo sapiens with 6 samples.

Results

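The nucleoporin and nuclear transport genes are the 45 autosomal protein-coding genes whose symbol starts with NUP, KPNA, KPNB, IPO, XPO or TNPO followed by a number, out of 19222 autosomal protein-coding gene symbols in the annotation. The rule uses the symbol alone, but genes and lists were chosen with earlier results of these data known. A further symbol that matched, NUP62CL, is on the X chromosome and was left out. The binding of 2 proteins, the transcription factor N-Myc and JMJD6, a JmjC-domain protein described as a histone arginine demethylase, was measured by ChIP-seq in CHP-134 cells, an established human neuroblastoma line that overexpresses N-Myc. The study describes this line as MYCN amplified and gained in the chromosome region that holds JMJD6. The effect of copy number on the peaks was not tested. Chromatin was immunoprecipitated from 3 N-Myc samples, cross-linked by formaldehyde only and pulled down with NMYC antibody (sc-53993), and from 3 JMJD6 samples, whose titles use the older name PTDSR, cross-linked by DSG and then formaldehyde and pulled down with JMJD6 antibody (ab64575). Both groups came from the same cell line, and they differ in antibody and in cross-linking at once, which cannot be told apart. Each list holds the positions of peaks called in all 3 samples of a protein, without height, count or column per sample, so no spread between replicates and no test could be had, and every value below is a count or a length from 1 list per protein.

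The nuclear pore complex is a ring of nucleoporins set in the nuclear envelope, built from a Y-shaped scaffold, an inner ring, a channel lined with FG repeats, filaments on the cytoplasmic face and a basket on the nuclear face. Cargo passes through it on transport receptors of the karyopherin family. Importins carry proteins in, often through an importin alpha adaptor that binds the nuclear localisation signal, exportins carry cargo out, and the small GTPase RAN sets the direction. MYC proteins bind DNA as dimers with MAX, with a preference for the E-box CACGTG, and are known for binding the promoters of many housekeeping and growth genes.

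N-Myc was present at the promoters of 26 of the 45 genes (57.8%), a promoter being 1 kb on each side of a RefSeq start site, whereas 17.8% of all autosomal protein-coding genes had an N-Myc promoter. The roles below count only genes that the symbols reach, and the bound genes came from all of them but the 2 membrane anchors NUP210 and NUP210L. Of the 22 nucleoporins 11 were bound (50.0%), and of the 23 transport receptors 15 were bound (65.2%). JMJD6 was at none of the 45 promoters, and at 0.635% of all promoters, and regions bound by both proteins were at none of the 45 and at 0.291% of all, and at such background shares a count of 0 in 45 is not a result about these genes. A CpG observed to expected ratio of at least 0.6 at the start was found for 90.3% of all genes with an N-Myc promoter, 66.5% of all genes and 91.1% of the 45. Among genes with such a start, a comparison chosen after the data were seen, 25 of 41 transport genes and 24.2% of all genes were bound.

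**Figure D1:**
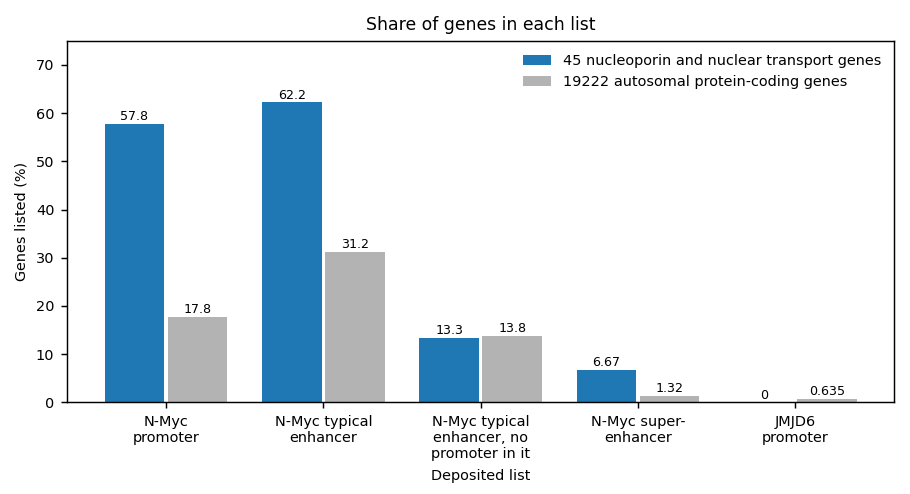
Bars give the percent of genes in each list, blue for the 45 transport genes and grey for all 19222 autosomal protein-coding genes. The promoter bars stand at 57.8% and 17.8%, and the bars for typical enhancers that overlap no N-Myc promoter stand at 13.3% and 13.8%.

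The sequences that carried the E-box in the bound promoters are shown first. The E-boxes of NUP153 and TNPO2 are given because their peaks held the most, a site of NUP155 because its peak was the widest with no E-box, and those of IPO7, KPNA4, XPO4 and NUP98 as further examples chosen after the values were seen. All are reference sequence (GRCh37, hg19) on the strand of the gene, 5′ to 3′, with CACGTG or, in NUP155, CACGCG in capitals. The NUP153 sites are at chr6:17706278-17706338 and chr6:17706393-17706453 (minus strand, intron), 115 bp apart. The TNPO2 sites are at chr19:12833481-12833541 and chr19:12833527-12833587 (minus strand, intron), 46 bp apart, and at chr19:12834753-12834782 (minus strand, untranslated exon). The other windows are chr11:9406034-9406094 for IPO7 (plus strand, upstream of the gene), chr3:160283534-160283594 for KPNA4 (minus strand, upstream), chr13:21476261-21476321 for XPO4 (minus strand, intron), chr11:3819288-3819317 for NUP98 (minus strand, upstream) and chr5:37371526-37371586 for NUP155 (minus strand, upstream).
NUP153 site 1: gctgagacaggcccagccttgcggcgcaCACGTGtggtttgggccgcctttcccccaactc
NUP153 site 2: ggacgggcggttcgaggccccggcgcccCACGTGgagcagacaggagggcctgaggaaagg
TNPO2 site 1: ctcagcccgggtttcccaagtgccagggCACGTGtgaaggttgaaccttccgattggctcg
TNPO2 site 2: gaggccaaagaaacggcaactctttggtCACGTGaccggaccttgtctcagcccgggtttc
TNPO2 site 3: ggcggctttctgCACGTGtttctcagccca
IPO7: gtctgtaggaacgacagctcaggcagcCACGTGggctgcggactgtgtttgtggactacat
KPNA4: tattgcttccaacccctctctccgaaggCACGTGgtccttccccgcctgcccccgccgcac
XPO4: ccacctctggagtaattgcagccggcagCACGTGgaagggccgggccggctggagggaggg
NUP98: cctcaggctccgCACGTGgtctgggcggga
NUP155: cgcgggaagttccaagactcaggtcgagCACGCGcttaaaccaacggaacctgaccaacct

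Over the 26 promoters lay 30 N-Myc peaks, and 11 of them (36.7%) held at least 1 E-box, against 1309 of the 3549 N-Myc peaks at any autosomal promoter (36.9%). The 11 peaks held 13 E-boxes and belonged to 10 genes, 4 nucleoporins (NUP35, NUP88, NUP98 and NUP153) and 6 receptors (IPO4, IPO7, KPNA4, TNPO2, XPO4 and XPO5). A peak with more than 1 E-box was seen at NUP153 and at TNPO2, and made up 6.59% of all promoter peaks. Of the 13 E-boxes, 8 (61.5%) read CACGTGG or CCACGTG, as in the KPNA4, IPO7 and XPO4 sequences above, and of 1583 E-boxes in all promoter peaks 65.4% did, a reading added after the sequences were seen. Of the 19 peaks without an E-box, 11 held CACGCG or CATGTG on either strand, as in NUP155, and 8 held none of these letters. A match of letters is a description of the window and does not show where the protein sat.

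Of the Y complex, the outer scaffold of the pore, 6 genes with such a symbol were counted here, and 3 of them were bound. NUP98 was counted with the cytoplasmic side only. The Y complex subunits SEC13, SEH1L and AHCTF1, which have other symbols, were not bound. Of the 3 bound genes, NUP107 and NUP85 carried some of the widest peaks. The peak of NUP107, at chr12:69080292-69081352, was 1061 bp wide and covered the start site. That of NUP85, at chr17:73201000-73202041, was 1042 bp wide and also covered the start. NUP160 had a peak of 455 bp at chr11:47869369-47869823, inside the gene, with its centre 269 bp downstream of the nearest annotated start. None of these 3 peaks held an E-box. NUP133, NUP37 and NUP43, subunits of the same complex, had no N-Myc promoter. NUP133 had a peak of 249 bp inside the gene, at chr1:229617818-229618066 and 26.1 kb downstream of its start, whereas the nearest N-Myc peak to the NUP37 start was 286 kb away and that to NUP43 was 180 kb away.

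Of the inner ring, the scaffold that lines the membrane bend, NUP155, NUP205 and NUP35 were bound and NUP188 and NUP93 were not. NUP155 had the widest of the 30 peaks at transport genes, 1078 bp at chr5:37370806-37371883, with its centre at -136.5 bp from the start (negative values lie upstream). NUP35 had a peak of 981 bp at chr2:183988956-183989936 with 1 E-box, and NUP205 a peak of 755 bp at chr7:135242333-135243087 without one. All 3 covered an annotated start and were wider than 612 bp, the upper quartile of all promoter peaks. NUP93 had a peak of 307 bp far inside the gene, at chr16:56882872-56883178, 119 kb from its start, and this peak held 1 E-box. The nearest N-Myc peak to NUP188 was 26.7 kb from its start.

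The central channel, which is filled with FG repeats and forms the permeability barrier, had NUP54 and NUP62 bound and NUP58 unbound. NUP54 had 2 peaks, 668 bp at chr4:77069440-77070107 over the start and 361 bp at chr4:77068810-77069170 over an annotated start within the gene. The NUP62 peak, 489 bp at chr19:50432887-50433375, was shared with the listed promoters of ATF5 and IL4I1, so it cannot be given to NUP62 alone. It held no E-box but 3 matches to CACGCG or CATGTG. The nearest N-Myc peak to NUP58 was 282 kb away.

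On the cytoplasmic side, NUP88, which holds NUP214 on the filaments, was bound by a peak of 672 bp at chr17:5322988-5323659, shared with the promoter of RPAIN. NUP98, an FG nucleoporin of both faces and an mRNA export factor, was bound by a peak of 590 bp at chr11:3818909-3819498, shared with PGAP2. Each peak held 1 E-box. The nearest N-Myc peak to the NUP214 start was 193 kb away. NUP42 was not found by its symbol, but a row under its former symbol NUPL2 was listed, and the peak of 653 bp at chr7:23221150-23221802 covered the NUP42 start, so that 27 genes were bound once older symbols were looked up, with a background of 18.4%. NUP58, formerly NUPL1, was not listed under either symbol.

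Of the nuclear basket, 1 of the 2 genes with a NUP symbol was bound, and so was the basket gene TPR, which has another symbol. NUP153, which anchors the basket to the pore, had a peak of 302 bp over the start, at chr6:17707117-17707418, and one of 441 bp in an intron, at chr6:17706037-17706477. The intronic peak had its centre 808 bp downstream of the nearest start, farther than any other peak of the 30, and held both NUP153 E-boxes. NUP50, a basket protein that releases importin alpha from its cargo, was not listed, although 1 E-box lay within 1 kb of its start, and its nearest N-Myc peak was 61.7 kb away. Neither NUP210 nor NUP210L had an N-Myc promoter, whereas the membrane anchor NDC1, outside the symbol rule, had one. NUP210, a transmembrane anchor of the pore, had a peak of 288 bp with 1 E-box at chr3:13460470-13460757. The peak lay inside the gene 1.06 kb from the canonical start, just outside the promoter. With peaks within 1 kb of any annotated start counted, NUP210 was bound. The nearest peak to NUP210L, its paralogue, was 15.9 kb from the start.

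The importin alpha adaptors had 5 of 7 genes bound, KPNA1 to KPNA5, mostly by narrow peaks. Their widths ran from 249 to 463 bp with a median of 250.0 bp, below the 343 bp that is the lower quartile of all promoter peaks. The peaks of KPNA2, at chr17:66031684-66031932, and of KPNA4, at chr3:160283505-160283753, were each 249 bp wide, and that of KPNA5, at chr6:117001997-117002246, was 250 bp. KPNA3 had the widest of the group, 463 bp at chr13:50366947-50367409. The KPNA1 peak, 315 bp at chr3:122232769-122233083, lay in an intron 463 bp downstream of the nearest annotated start. Only KPNA2 among these had a peak that covered a start, and only KPNA4 had an E-box. KPNA6 had 1 E-box within 1 kb of its start and its nearest N-Myc peak was 35.2 kb away. KPNA7, the other unbound member, had a CpG ratio of 0.46, and its nearest peak was 167 kb away. With peaks narrower than 418 bp left out, the median width of all N-Myc common peaks, KPNA3 alone of the group remained bound.

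Of the importin beta family, the receptors that bind RAN and the FG repeats, 5 of 8 genes were bound, and every one of the 5 peaks covered an annotated start. KPNB1, importin beta itself and the partner of the importin alpha adaptors, had the widest, 565 bp at chr17:45726898-45727462. IPO7, a receptor for ribosomal proteins and histone H1, had a peak of 522 bp at chr11:9405832-9406353 with 1 E-box. IPO8, its close relative, had a peak of 426 bp at chr12:30848705-30849130 without one. IPO4 had a peak of 419 bp at chr14:24657867-24658285 with 1 E-box. IPO11 had a peak of 342 bp at chr5:61708443-61708784 with none, and a further peak of 451 bp with 2 E-boxes at chr5:61699670-61700120, over an upstream start of IPO11 and the listed promoter of DIMT1. IPO5, IPO9 and IPO13 had no N-Myc promoter, and their nearest N-Myc peaks were 116 kb, 96.8 kb and 22.7 kb from the start.

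Among the transportins, the receptors of RNA-binding and SR proteins, TNPO2 was bound and TNPO1 and TNPO3 were not. TNPO2 had 2 peaks, 930 bp at chr19:12834109-12835038 over the start and 543 bp at chr19:12833399-12833941 in an intron, with 3 E-boxes in all, more than in the promoter peaks of any other of the 26 genes. It was also the only bound gene with a CpG ratio below 0.6, at 0.48. TNPO1 and TNPO3 had ratios of 0.87 and 0.70, and their nearest N-Myc peaks were 215 kb and 88.6 kb away.

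Of the exportins, 4 of 5 were bound. XPO1, the receptor of leucine-rich nuclear export signals, had a peak of 650 bp over a start at chr2:61765287-61765936 and a further peak of 637 bp with 1 E-box inside the gene, at chr2:61763703-61764339, 1.47 kb from the canonical start. XPO4 had a peak of 552 bp with 1 E-box in an intron, at chr13:21476097-21476648, and another of 411 bp with 1 E-box 88.0 kb inside the gene, at chr13:21388638-21389048. XPO5, the exporter of pre-miRNAs, had 2 peaks, 355 bp at chr6:43543008-43543362 with 1 E-box and 211 bp at chr6:43543480-43543690, the narrowest of the 30, and shared them with the promoter of POLH. XPO6, the exporter of actin, had a peak of 369 bp at chr16:28223471-28223839. Its centre was at -369 bp from the nearest annotated start, by that measure the farthest upstream of the 30. XPO7 was not bound at its promoter, and its nearest peak was 80.4 kb away.

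**Figure D2:**
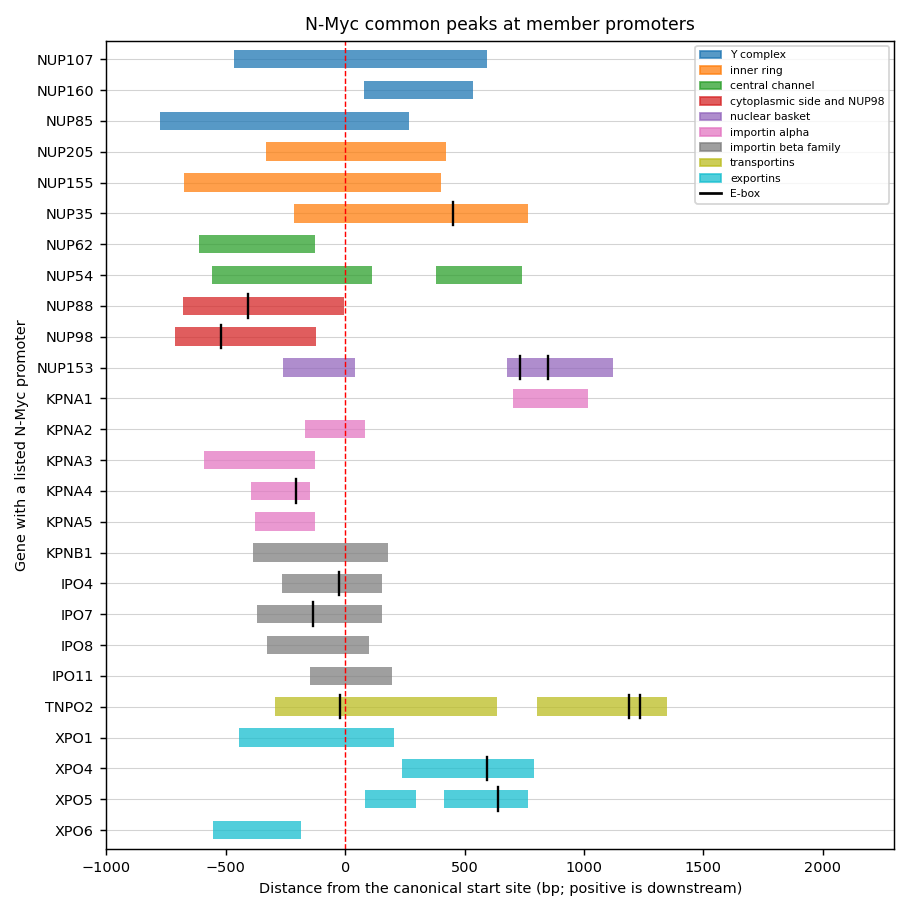
Bars are the N-Myc peaks at the 26 bound promoters, drawn to scale as distance in bp from the canonical start site (dashed line) and coloured by role, and black ticks mark CACGTG. Peaks over the start are seen for 15 of the 26 genes, and those of NUP160, KPNA1, XPO4 and XPO5 lie wholly downstream of it.

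Measured from the nearest annotated start, the position of the peaks was close to that of promoter peaks in general. The centre lay at a median of -85.8 bp from the nearest annotated start, against -61.5 bp for 3685 pairs of a gene and a peak, and 20 of the 30 lay within 250 bp of a start, against 64.0% of all pairs. A start was covered by 19 peaks (63.3%), against 62.1% of all pairs. Measured from the start in the list row, 15 of the 30 peaks lay downstream, against 41.1% of all pairs. More than 1 peak at the promoter was seen for 4 of the 26 genes (15.4%), NUP153, NUP54, TNPO2 and XPO5, against 9.41% of all bound genes. A peak was shared with another listed promoter at 6 of the 26 genes, the 4 already named (NUP62, NUP88, NUP98 and XPO5) and NUP107 and NUP153, whose partners were LOC100507250 and LOC105374952. By centre, 13 peaks lay outside the gene, 11 in an intron, 4 in an untranslated region and 2 in a coding exon. Their GC content had a median of 58.2%, against 58.3% for all promoter peaks.

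The width of the 30 peaks had a median of 476 bp, against 452 bp for all promoter peaks, and ran from 211 bp at XPO5 to 1078 bp at NUP155. The 13 peaks of nucleoporins had a median of 668 bp and the 17 of receptors a median of 419 bp. Of the 30, 9 were above the upper quartile of all promoter peaks and 7 were below the lower quartile. All 3 peaks of at least 1000 bp were at scaffold nucleoporins, NUP107, NUP85 and NUP155, whereas 4.03% of all promoter peaks were that wide. Width is not a measure of binding strength and was used here because the lists hold no height. When peaks narrower than 418 bp were left out, 19 of the 45 genes were bound (42.2%), with a background of 10.6%, and the genes lost were IPO11, KPNA1, KPNA2, KPNA4, KPNA5, XPO5 and XPO6.

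**Figure D3:**
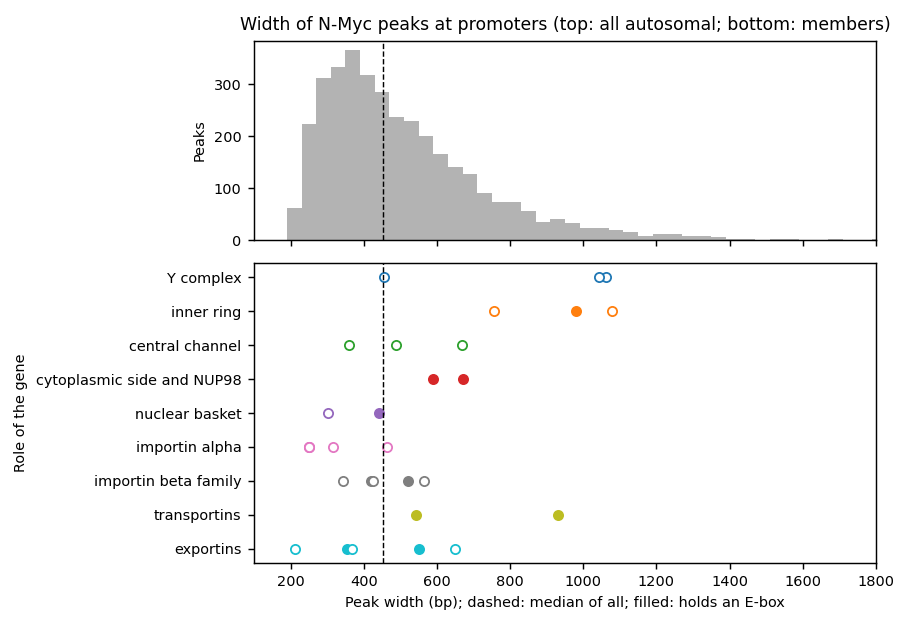
The upper panel counts all 3549 N-Myc promoter peaks by width in bp, and the lower panel shows the 30 peaks at transport genes by role, filled where the peak held CACGTG. The dashed line is the median of all promoter peaks, 452 bp, and the importin alpha peaks lie from 249 to 463 bp while the inner ring peaks lie from 755 to 1078 bp.

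The start sites themselves differed little between bound and unbound transport genes in CpG content. The CpG observed to expected ratio over 1001 bp had a median of 0.80 in the 26 bound and 0.78 in the 19 unbound genes, whereas over all genes it was 0.79 in bound and 0.70 in unbound ones. A ratio of at least 0.6 was found for 25 of the 26 bound and 16 of the 19 unbound genes, the exceptions among the latter being IPO5 (0.27), KPNA7 (0.46) and NUP210L (0.54). An E-box lay within 1 kb of the canonical start in 11 of the 26 bound genes (42.3%) and 4 of the 19 unbound genes (21.1%), which were IPO13, KPNA6, NUP50 and NUP188, the last with 2. Over all genes these shares were 46.9% of bound and 25.3% of unbound. A gene on the opposite strand started within 1 kb of 5 transport genes (11.1%), against 10.1% of all genes. Among bound genes it was 3 of the 26 transport genes (11.5%), against 21.6% of all bound genes. At NUP62, NUP88 and XPO5 both the gene and its partner (ATF5, RPAIN and POLH) were bound, and at NUP188 and NUP37, with the partners DOLK and PARPBP, the transport gene was not. When only genes with no other start within 1 kb were counted, 22 of 39 transport genes (56.4%) and 15.3% of all genes were bound.

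Enhancers in the lists are regions of H3K27ac, an acetylation mark of active chromatin, and each was given to its nearest genes by position alone. N-Myc typical enhancers were assigned, by current symbol alone, to 28 of the 45 genes (62.2%), with a background of 31.2%. The peak over the NUP42 start, whose promoter was listed as NUPL2, also lay in 1 typical enhancer and is not in this count. Most of the assigned regions overlapped the genes' own listed promoters. The study states, however, that H3K27ac peaks within 1 kb of start sites were subtracted. Of the 35 assignments, 22 overlapped the gene's own listed promoter, as at NUP107, KPNB1 and XPO6, and 6 more overlapped the N-Myc promoter of another gene, at NUP160, NUP188, NUP210L, IPO7, XPO5 and XPO6. With only the regions that overlapped no N-Myc promoter, 6 genes were left (13.3%), beside 13.8% of all genes, so the excess over the background was not there. These 6 were IPO5, at 119 kb, NUP153, with regions at 161 and 180 kb, NUP210, at 0.878 kb, NUP35, at 881 kb, XPO1, at 226 kb, and XPO7, at 90.7 kb. The NUP210 region was 443 bp long and overlapped the peak inside that gene. Of the bound genes, IPO8, KPNA1 and NUP62 had no typical enhancer assigned.

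Super-enhancers, long stitched stretches of H3K27ac, with N-Myc bound were assigned to 3 genes (6.67%), with a background of 1.32%. Only KPNA5 of the 3 had a listed N-Myc promoter. Its region did not overlap that promoter but did overlap the N-Myc promoter of another gene. The region given to IPO9, at chr1:201616728-201673353, was 56.6 kb long, lay 153 kb away, held 2 N-Myc peaks and was also given to NAV1. That given to NUP210, at chr3:13057730-13088559, was 30.8 kb long, lay 389 kb away, held 4 peaks and was also given to IQSEC1. That given to KPNA5, at chr6:117050459-117090071, was 39.6 kb long, held 2 peaks, lay 67.9 kb from the start with one end inside the KPNA5 gene, and was also given to FAM162B. Within 100 kb only KPNA5 was left, beside 0.806% of all genes. A count of 3 is small, and the distances leave the assignment to these genes uncertain.

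JMJD6 lists held too few genes to be read for a group of 45, and the values are given for completeness. No typical enhancer of JMJD6 was assigned to any of the 45, beside 0.900% of all genes, and no super-enhancer, beside 0.0780%. A JMJD6 peak overlapped none of the 30 N-Myc peaks, against 1.35% of all N-Myc promoter peaks, and no JMJD6 peak lay in any enhancer or super-enhancer assigned to the 45. The nearest JMJD6 peak lay at a median of 1804 kb from the start of the transport genes and 2376 kb over all genes. NUP62 alone had one within 100 kb, at 59.7 kb (2.22% of the 45, against 5.60% of all genes). The JMJD6 list was short, with 561 common peaks against 10172 for N-Myc.

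Across the 45 genes, 13 were in no N-Myc list under their current symbol. These were NUP133, NUP37, NUP43, NUP93, NUP58, NUP214, NUP42, NUP50, KPNA6, KPNA7, IPO13, TNPO1 and TNPO3. They spanned 8 of the 10 roles, the membrane group and the exportins having none. By peaks rather than lists, NUP42, NUP93 and NUP133 of the 13 had an N-Myc peak within the gene. Over the 19 genes with no N-Myc promoter, 11 had an N-Myc peak within 100 kb of the start, and the median distance was 88.6 kb, against 81.5 kb for all unbound genes.

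A fixed list of 29 other nuclear transport genes, outside the symbol rule, was also looked up. Of these 12 were bound (41.4%), beside the 17.8% of all genes. The list was picked by hand and is not the whole pathway. THOC2, which is not autosomal, and the older symbols NUPL1 and NUPL2 were left out of the share. Of the RAN cycle 3 of 7 were bound, namely RCC1, the exchange factor that charges RAN with GTP on chromatin, RANBP3, a cofactor of XPO1, and NUTF2, which returns RAN to the nucleus, while RAN, RANGAP1, RANBP1 and RANBP2 were not. RCC1 had 2 peaks, the wider of 680 bp, and was also given an N-Myc super-enhancer. Of the other pore subunits 2 of 10 were bound (20.0%), a share near that of all genes, namely the basket protein TPR with a peak of 807 bp and the membrane anchor NDC1 with one of 466 bp. NDC1 was the only one of the 29 with JMJD6 at its promoter, and stood in the list of both proteins. The unbound ones were SEC13, SEH1L, AHCTF1, POM121, POM121C, AAAS, RAE1 and GLE1. Of the receptors with other symbols, CSE1L, which exports importin alpha, and XPOT, which exports tRNA, were bound, and RANBP17 and SNUPN were not. Of the mRNA export genes 5 of 8 were bound, the widest being a peak of 1109 bp at DDX39B, followed by DDX19A (729 bp), THOC5 (428 bp), THOC1 (318 bp) and DDX19B (277 bp), while NXF1, NXT1 and ALYREF were not. With peaks narrower than 418 bp left out, 6 of the 29 were bound (20.7%), beside 10.6% of all genes.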

How the data were processed

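ChIP-seq samples from CHP-134 cells were grouped by the antibody in their labels, 3 for N-Myc and 3 for JMJD6. Per the labels and the methods of the study, the authors aligned reads to hg19 with BWA, processed the alignments with SAMtools and bedtools, called peaks against input with MACS2 (version 2.1.1.20160309) under a q-value limit, and kept peaks found in all 3 samples. The 12 deposited lists hold positions in bp, with gene symbols for promoters and nearest genes (GREAT) for enhancers and super-enhancers (ROSE). Reads, input, H3K27ac data and depth per sample were not used here, so the precision of a peak call is not known. Symbols were looked up exactly, in promoter rows of 2001 bp, and matched to autosomal protein-coding genes of GENCODE version 44 lifted to GRCh37. Of 4150 symbols with an N-Myc promoter, 3421 matched. The rows were checked against the annotation, and 29 of 33 rows of the transport genes lay within 100 bp of a start of that gene (88.0% of 4330 rows overall). An overlap was at least 1 bp. Motifs were counted on both strands of the reference. The start of a gene was its canonical transcript start, and peak distances were taken to the nearest annotated start. Every gene matched by the symbol rule was named once. Peaks were described for genes listed at a promoter or super-enhancer, and sequences chosen from the peaks with most E-boxes and the widest peak without one. Other peaks within genes, and the sequences of IPO7, KPNA4, XPO4 and NUP98, were added after the values were seen. Genes and lists were chosen with earlier results of these data known. No test between groups was made, since each list is pooled over samples. Scripts were tested on simulated data. Python 3.11.15, numpy 2.4.6, pysam 0.24.0 and matplotlib 3.10.9 were used.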

Additional observations from a re-analysis of the deposited data

How the results depend on the processing

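Of 31 alternatives, 25 left a count within 1.5 times of its value or a median width as it was. The count of transport genes with an N-Myc promoter ran from 19 with peaks of at least 418 bp to 28 with a peak within 1 kb or 2 kb of any annotated start, above a background of 10.6%, 21.5% and 23.0%. The genes added in the count of 28 were NUP210 and NUP42. The JMJD6 count was 0 under all 6 alternatives tried for it. These 6 are among the 25, although a count of 0 at such low background shares had little room to move. The width without JMJD6 peaks, also among the 25, could not change, since no JMJD6 peak overlapped the 30 peaks. The canonical start and the CpG-rich comparison were chosen after seeing the data. The values that moved were as follows. Of the other transport genes, 6 were bound with wider peaks, against 12. Typical enhancers overlapping no N-Myc promoter left 6 genes, against 28, and super-enhancers within 100 kb left 1, against 3. Measured from the start in the list row, the median distance was 1 bp, against -85.8 bp. Within 100 bp of the peak centre 7 of 30 peaks (23.3%) held CACGTG, beside 23.0% of all promoter peaks. With CACGCG and CATGTG also counted 22 did (73.3%), beside 67.3% of all. The main count was 11. A stricter limit or a smaller window can only lower a count, and added motifs can only raise it. The cause of the shifts was otherwise not tested. No paired analysis was possible because the lists are pooled over samples and have no column per sample, and for the same reason no sample could be left out. A stricter peak threshold could be imitated only by width.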
